A study of Homo sapiens with 6 samples.

Results

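Replication-dependent histone genes encode the H1, H2A, H2B, H3 and H4 proteins that package newly made DNA. They were taken as the protein-coding genes whose symbol starts with HIST1H to HIST4H in the gene table of the RIP-seq, and 71 of its 58302 genes met this rule: 6 of H1, 17 of H2A, 18 of H2B, 15 of H3 and 15 of H4. The study sequenced untreated wild-type SW480 and DLD-1 cells, both established human colorectal cancer lines. Each line gave an Input library of total RNA, a RIP library of RNA that came down with an antibody to NAT10, the enzyme that writes N4-acetylcytidine (ac4C), and an acRIP library of RNA that came down with an antibody to ac4C. There was 1 library in each of the 6 groups, so no difference below has a replicate check and no p-value is given. Levels are FPKM, which scales fragments by gene length and by library size, and a second table gave Input levels beside the acRIP, read here as the same unit. The labels hold 1 Input sample a line, and the Input columns of both tables are assigned to it, so they are not replicates of each other.

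These genes are switched on together as cells enter S phase, when NPAT gathers at the clusters in the nucleus and starts their transcription. Their mRNAs have no introns and mostly end in a short stem-loop in place of a poly(A) tail. SLBP binds this stem-loop, and the U7 small nuclear RNP, with LSM10 and LSM11, guides the cut that makes the end. Most members are copies that encode the same or nearly the same protein, so the reads of close copies can be split between them and the level of a single copy is uncertain. The nearly identical HIST2 copies are HIST2H2AA3 and HIST2H2AA4, HIST2H3A, HIST2H3C and HIST2H3D, and HIST2H4A and HIST2H4B. HIST1H4I lies inside the RefSeq span of HIST1H2BK on the opposite strand, and the use of strand in counting is not given in the sources used here.

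RefSeq (GRCh38.p14) placed 55 members in the HIST1 cluster, between positions 25726063 and 27893891 of chromosome 6. The HIST2 (12 members) and HIST3 (3 members) genes lie on chromosome 1, and HIST4H4 is the only member on chromosome 12. Of the 71 members, 65 were above 0 in at least 1 of the 4 RIP-table libraries. HIST1H2AA, HIST1H2AD, HIST1H3D, HIST2H3PS2, HIST1H4F and HIST1H4G were listed at 0 in all 4. A mean of at least 1 FPKM over the 4 libraries was required for the ratios below, and 58 members passed (4 of H1, 14 of H2A, 17 of H2B, 12 of H3 and 11 of H4). The means nearest the limit were 1.25 FPKM for HIST2H3A inside it and 0.692 FPKM for HIST2H4A outside it. Of the 58, 50 were at 1 FPKM or more in all 4 libraries and 4 had a library at 0.

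Relative read depth was 1 for the SW480 RIP library, 0.493 for the SW480 Input, 0.850 for the DLD-1 RIP and 0.456 for the DLD-1 Input. At least 11177879 reads lay behind each of them, and the members took between 0.228% and 1.05% of the reads. The epithelial markers EPCAM, KRT8, KRT18, KRT19 and CDH1 ranged from 54.1 to 1642 FPKM over the 4 RIP-table libraries, CDX2 from 4.31 to 33.4 FPKM, and VIL1 reached at most 1.24 FPKM. The markers PTPRC, PECAM1, COL1A1 and COL1A2 of other cell types stayed at or below 0.381 FPKM, while ACTA2 lay between 3.35 and 16.5 FPKM. Over 11605 protein-coding genes past the limit, each RIP library followed the Input of the other label more closely than that of its own. The Pearson r of log2 levels was 0.755 for the SW480 RIP with the SW480 Input and 0.895 with the DLD-1 Input. It was 0.724 for the DLD-1 RIP with the DLD-1 Input and 0.912 with the SW480 Input, and these r values describe genes of the same libraries. The libraries are therefore named by their labels, and an exchange of labels between lines, in the RIP or the Input libraries, cannot be told apart from a difference between the lines. No direction of NAT10 RIP between lines is therefore drawn, and medians are given over the Input of either label.

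Histone mRNAs were abundant, and their share of the transcriptome differed between libraries. The 71 members summed to 2.06% of all protein-coding FPKM in the SW480 Input and 0.897% in the DLD-1 Input. In the second table the Input shares were 2.25% for SW480 and 0.940% for DLD-1. The members made up 1.29% in the SW480 RIP library and 4.12% in the DLD-1 RIP library. Thus both SW480 Inputs held the larger share, and the library with the most was the DLD-1 RIP. In bulk RNA, fewer cells making these mRNAs and less mRNA per cell cannot be told apart.

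HIST1H1C and HIST1H1E carried most of the H1 level. HIST1H1C, a linker histone gene with a known polyadenylated form, was at 532 FPKM in the SW480 Input, 474 in the SW480 RIP, 258 in the DLD-1 Input and 1264 in the DLD-1 RIP. HIST1H1E followed at 474, 345, 182 and 1121 FPKM in the same order. HIST1H1B was lower, at 130, 191, 80.2 and 397 FPKM. HIST1H1D was the H1 gene with the widest gap between lines, with 137 FPKM in the SW480 Input and 12.6 in the DLD-1 Input against 19.7 in the SW480 RIP and 246 in the DLD-1 RIP. All 4 had their highest level in the DLD-1 RIP, and their lowest in the DLD-1 Input. HIST1H1A and the testis gene HIST1H1T did not pass the limit.

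In the core classes a few genes dominated. HIST1H2BK, an H2B gene with a known polyadenylated form, was the highest H2B in all 4 libraries, with 593 FPKM in the SW480 Input, 360 in the SW480 RIP, 227 in the DLD-1 Input and 1191 in the DLD-1 RIP. HIST1H3B led the H3 class in 3 of them, at 383 FPKM in the SW480 Input, 169 in the SW480 RIP and 1131 in the DLD-1 RIP, and stood at 81.3 in the DLD-1 Input. HIST1H4D led H4 at 227, 212, 48.7 and 987 FPKM in the order SW480 Input, SW480 RIP, DLD-1 Input and DLD-1 RIP. In H2A the leading gene changed with the library. HIST1H2AJ was highest in the SW480 Input (553 FPKM), HIST1H2AE in the DLD-1 Input (259 FPKM), and HIST2H2AC in both RIP libraries (191 FPKM for SW480 and 736 FPKM for DLD-1).

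**Figure D1:**
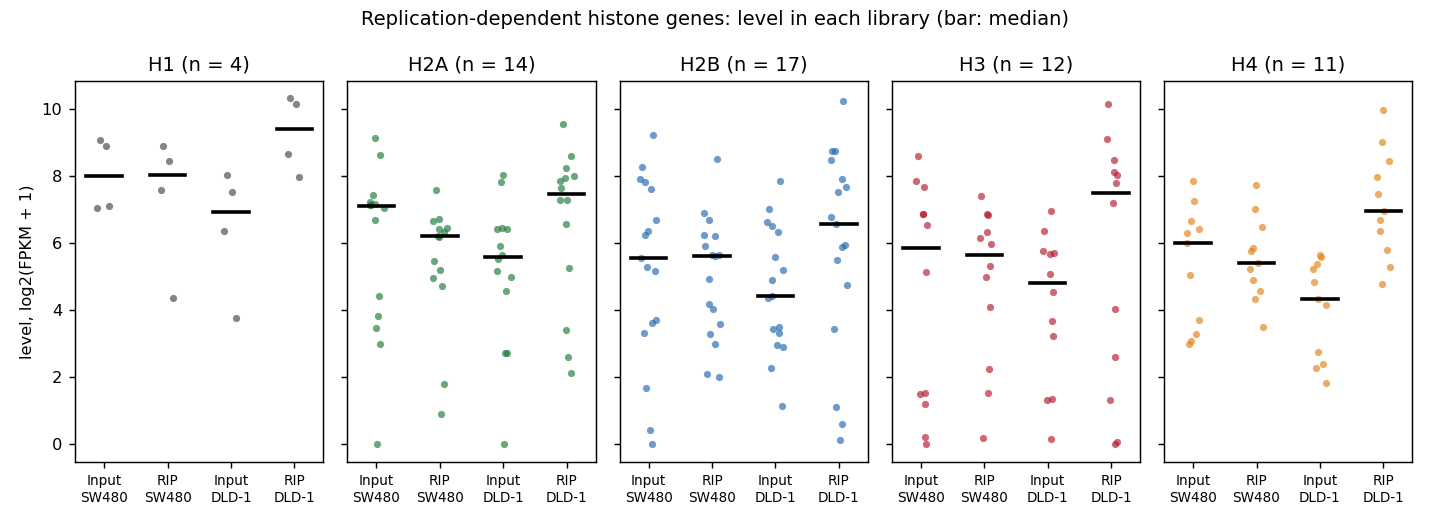
Level of each member past the limit in the 4 RIP-table libraries, by histone class, as log2(FPKM + 1); points are genes and bars are medians. The DLD-1 RIP library has the highest median in each of the 5 classes, and a few H2B and H3 members lie near 0 in it.

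The first question was which histone mRNAs were higher in the NAT10 RIP than in Input. Ratios are on the scale log2((FPKM + 1)/(FPKM + 1)), which understates changes of low genes, and a member was counted when its ratio passed 2-fold. With SW480 labels the median over the 58 members was -0.53, with 12 members higher and 21 lower, and with DLD-1 labels it was 2.20, with 45 higher and 6 lower. Among protein-coding genes 22% were higher and 9.53% lower with SW480 labels (median 0.25), and 18% were higher and 16.3% lower with DLD-1 labels (median 0.04). The classes fell in the same way: the SW480 medians were -0.31 for H1, -0.66 for H2A, -1.01 for H2B, -0.55 for H3 and 0.06 for H4. The DLD-1 medians were 2.46 for H1, 1.76 for H2A, 1.86 for H2B, 2.38 for H3 and 3.41 for H4. H4 had the highest median under both labels, although its SW480 median turned below 0 under 4 other settings, the lowest of them -0.45 with the acRIP-table Input. Its rank under SW480 labels also depended on the setting. H3 was at -0.43 with that Input, and without the level filter H4 was at -0.10 and H1 at -0.08, so H4 was not the highest in either.

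Much of the contrast between labels depended on the Input used. Set over the Input of its own label, 41 of the 58 members (70.7%) had opposite signs in the SW480 and DLD-1 ratios, and 23 (39.7%) were at least 2-fold apart from Input in opposite directions, as were 11.8% of protein-coding genes. With the Inputs exchanged, opposite signs were left in 12 of 58 (20.7%) and 0 were at least 2-fold apart in opposite directions, as was 1 protein-coding gene. Opposite signs made up 51.4% and 20.7% of protein-coding genes in these 2 settings. The SW480 RIP over the DLD-1 Input gave a median of 0.55 with 17 members higher and 5 lower, where 10.9% of protein-coding genes were higher and 3.58% lower. The DLD-1 RIP over the SW480 Input gave 0.97 with 28 higher and 2 lower, where 10.7% were higher and 3.86% lower. The class medians were then 0.90 for H1, -0.06 for H2A, 0.16 for H2B, 0.72 for H3 and 1.66 for H4 in the SW480 RIP. In the DLD-1 RIP they were 1.24 for H1, 0.28 for H2A, 0.61 for H2B, 1.15 for H3 and 1.99 for H4, each below its value over the DLD-1 Input.

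**Figure D2:**
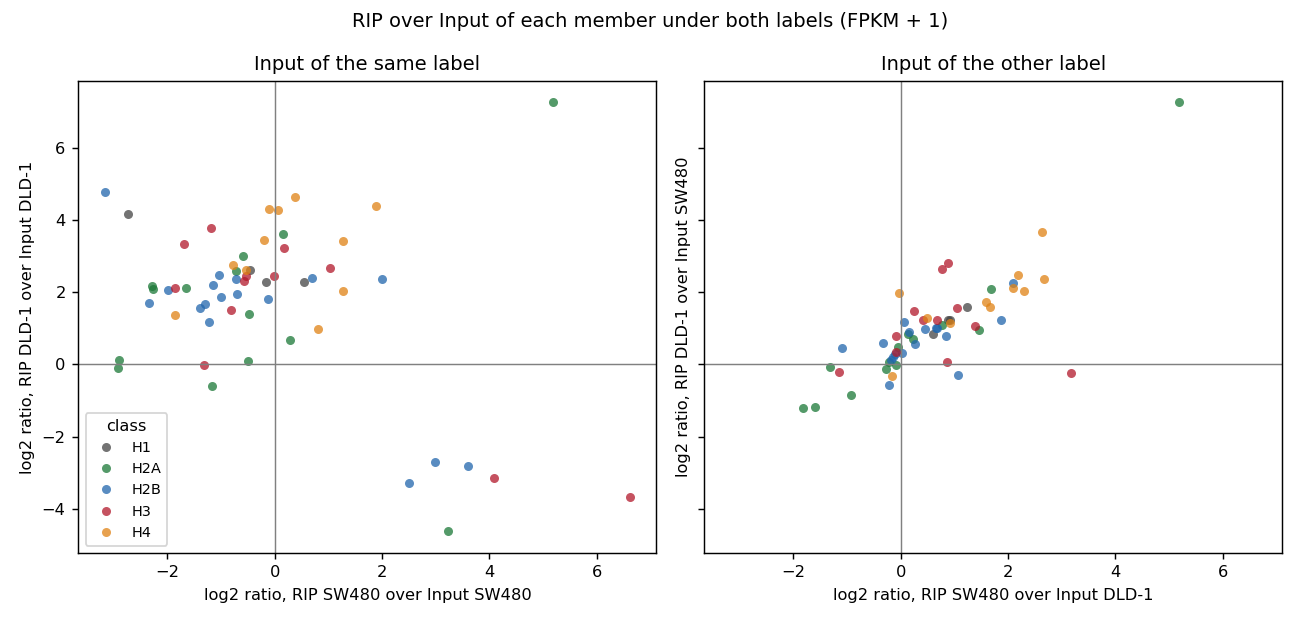
Log2 RIP over Input of each of the 58 members, SW480 RIP on the horizontal axis and DLD-1 RIP on the vertical axis, over the Input of the same label (left) and of the other label (right); colours are classes. On the left 41 members lie in quadrants of opposite sign, and on the right 12 do.

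The mean of the 2 log2 ratios does not depend on which Input a RIP library is set over, and it was used to rank the classes. This mean was not among the comparisons set in the design. Over the 58 members its median was 0.82, with 21 members at least 2-fold higher and 2 lower, against a median of 0.11 over protein-coding genes, of which 9.5% were higher and 2.75% lower. The class medians were 1.66 for H4, 1.07 for H1, 0.91 for H3, 0.43 for H2B and 0.09 for H2A. With the Inputs of the acRIP table in place of those of the RIP table, they were 1.61 for H4, 0.65 for H1, 0.89 for H3, 0.43 for H2B and 0.12 for H2A. H4 thus lay at the top and H2A at the bottom with either pair of Inputs, while H1 and H3 changed places. The order was not tested, since a class has no replicate libraries and its genes share the same ones.

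H4 genes encode the same protein, and 8 of 11 were at least 2-fold higher in this mean (7 with the acRIP-table Inputs). HIST1H4C had 98.6 FPKM in the SW480 Input, 128 in the SW480 RIP, 19.2 in the DLD-1 Input and 509 in the DLD-1 RIP, which gave a mean log2 ratio of 2.51 ± 0.08 (counting SE), or 1.71 with the acRIP-table Inputs. HIST1H4B had 83.6, 87.4, 16.9 and 349 FPKM in the same order, and a mean of 2.18 ± 0.08 (1.61 with the acRIP-table Inputs). HIST1H4D, with the levels given above, reached 2.11 ± 0.06 (2.15 with the acRIP-table Inputs). In all 3 the DLD-1 RIP was far above both Inputs, and the SW480 RIP stood near the SW480 Input and above the DLD-1 Input. The highest mean belonged to HIST1H4K at 3.15 ± 0.23, but its Input differed between tables, with 7.02 FPKM for SW480 in the RIP table and 27.7 in the acRIP table, and with the latter Inputs the mean was 0.62. HIST4H4, which has a known polyadenylated form, was at 1.66 ± 0.08. HIST1H4L was the exception at -0.24 ± 0.07 (-0.71 with the acRIP-table Inputs). It had 152 FPKM in the SW480 Input, 41.3 in the SW480 RIP, 46.5 in the DLD-1 Input and 122 in the DLD-1 RIP. The SE here is counting error of the reads only. It does not cover culture, library preparation or the choice of Input, and many means moved past it with the acRIP-table Inputs.

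RefSeq promoter windows (250 bases before to 50 after the start) were found for 66 members, and HIST1H2AH, HIST1H3I, HIST1H3J, HIST1H4A and HIST1H4C had none. The H4 windows are shown because they shared an element that was rare in the other classes. The 6 letters GGTCCG of site II, the H4 promoter element bound by HINFP, stood in 12 of 13 H4 windows on either strand, in 1 window each of H2A, H2B and H3, and in 11.3% of 35116 RefSeq windows. In the 12 H4 windows they began 44 to 47 bases before the start. The 24 bases around them are printed 5′ to 3′ on the strand of the gene with these letters in capitals.
HIST1H4B (chr6:26027314-26027337, minus strand): ctcaataaGGTCCGatgttcgtgt
HIST1H4D (chr6:26189141-26189164, minus strand): ttcaaacaGGTCCGtcatgctatt
HIST1H4H (chr6:26285565-26285588, minus strand): ttcaattaGGTCCGaattcccggc
HIST1H4K (chr6:27831592-27831615, minus strand): ctcagttcGGTCCGccaactgtcg
HIST1H4L (chr6:27873564-27873587, minus strand): cccaatcaGGTCCGatttattact
HIST4H4 (chr12:14771161-14771184, minus strand): ttcaaacaGGTCCGcatcgagaga
HIST1H4L, whose mean ratio lay below 0, holds the same letters as the 5 genes above 0 printed here, and HIST1H4F holds them while listed at 0.

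H2A genes differed widely from each other. HIST2H2AC had 172 FPKM in the SW480 Input, 191 in the SW480 RIP, 58.5 in the DLD-1 Input and 736 in the DLD-1 RIP, a mean log2 ratio of 1.89 ± 0.05. HIST1H2AJ, with 553, 72.9, 222 and 241 FPKM, had a mean of -1.39 ± 0.05. The copies HIST2H2AA3 and HIST2H2AA4 were low, and their means were -1.51 ± 0.25 and -0.89 ± 0.21, the latter -1.61 with the acRIP-table Inputs. With the acRIP-table Inputs the mean of HIST2H2AC was 1.34 and that of HIST1H2AJ was -1.25. Both genes moved by more than their counting SE, and HIST1H2AJ stayed far below HIST2H2AC with either pair of Inputs. Both belong to a class of near-identical proteins. HIST1H2AK was listed at 0 in both RIP-table Inputs, at 35.3 FPKM in the SW480 RIP and 153 in the DLD-1 RIP, and at 96.9 and 27.8 FPKM in the acRIP-table Inputs of SW480 and DLD-1. Its ratio is therefore set by the pseudocount, and without it the H2A median of the mean ratio was -0.05.

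In H2B, H3 and H1 most means lay between 0 and 2. HIST1H2BM had the highest H2B mean (2.18 ± 0.14, or 3.39 with the acRIP-table Inputs). Its DLD-1 Input was 10.3 FPKM in the RIP table and 0.243 in the acRIP table. HIST1H2BG had the lowest H2B mean (-0.39 ± 0.15, or -0.02 with the acRIP-table Inputs). HIST1H2BK was at 0.83 ± 0.03 (1.24 with the acRIP-table Inputs), and HIST1H2BO at -0.32 ± 0.06 (-0.64 with the acRIP-table Inputs). HIST1H2BO had 306 FPKM in the SW480 Input and 59.4 in the SW480 RIP, against 128 in the DLD-1 Input and 421 in the DLD-1 RIP. In H3 the means ran from -0.67 ± 0.33 for HIST2H3A to 1.85 ± 0.19 for HIST2H3C, which are among the nearly identical copies. HIST1H3B was at 1.30 ± 0.04 and HIST1H3A at 0.13 ± 0.07 (1.40 and 0.62 with the acRIP-table Inputs). HIST1H1B led H1 at 1.42 ± 0.04, and HIST1H1D was lowest at 0.73 ± 0.08 (1.32 and 0.57 with the acRIP-table Inputs).

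**Figure D3:**
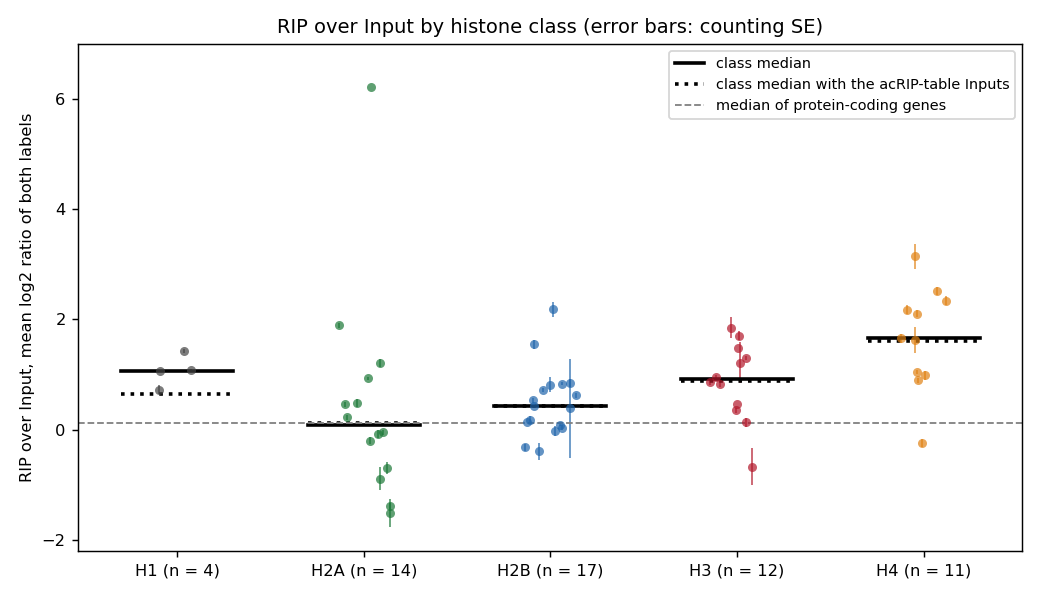
Mean log2 RIP over Input of both labels for each member past the limit, by class; error bars are counting SE (none where a library is at 0), solid bars class medians, dotted bars class medians with the acRIP-table Inputs, and the dashed line the median of protein-coding genes (0.11). The H4 median is 1.66 and the H2A median 0.09, and the point at 6.22 is HIST1H2AK.

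The genes that make and escort histone mRNA and protein were set beside the members. The 14 histone mRNA processing genes past the limit, among them SLBP, NPAT and HINFP, had a median mean-ratio of 0.08, with 0 at least 2-fold higher and 1 lower (LSM10). SLBP was at 34.7 FPKM in the SW480 Input, 37.2 in the SW480 RIP, 24.4 in the DLD-1 Input and 45.3 in the DLD-1 RIP. The 8 histone chaperones were at 0.34 with 0 in either direction. The 11 replacement histones, among them H2AFX, H2AFZ and H3F3B, were at 0.23 with 3 higher and 0 lower. The 15 S-phase genes had a median of 0.11 with 2 higher and 1 lower, so each of the 4 lists had a lower median than the 58 members. NAT10 mRNA was at 21.2 FPKM in the SW480 Input, 20.8 in the SW480 RIP, 23.0 in the DLD-1 Input and 14.3 in the DLD-1 RIP.

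The second question was how histone mRNA levels differed between the lines. In the Inputs of the RIP table the median DLD-1 over SW480 log2 ratio was -1.19, with 6 members at least 2-fold higher in DLD-1 and 33 lower, where 13.8% of protein-coding genes were higher and 8.14% lower. The acRIP-table Inputs gave -1.12, with 5 higher and 34 lower, against 12.4% and 8.88%. By class the RIP-table medians were -1.21 for H1, -1.21 for H2A, -1.25 for H2B, -0.78 for H3 and -1.46 for H4. Of members at least 2-fold apart in the same direction in both pairs of Inputs, 29 were higher in SW480 and 5 in DLD-1, where 6.29% and 10.3% of protein-coding genes met the same rule. Between the RIP libraries as labelled the direction was the opposite, with a DLD-1 over SW480 median of 1.70, 45 members higher and 6 lower (6.82% and 12.2% of protein-coding genes). All 34 members that were 2-fold apart in both Input tables differed at least 2-fold in the opposite direction between the RIP libraries, and so did 76.6% of the 1921 protein-coding genes apart in both Input tables, with 98.4% of opposite sign. The reversal was thus common to genes at large.

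Of the other lists, the epithelial markers and the S-phase genes were also lower in the DLD-1 Inputs. The histone mRNA processing genes did not share this, with DLD-1 over SW480 medians of 0.03 in the RIP table and -0.05 in the acRIP table. The replacement histones were at -0.01 and -0.12, and the chaperones at -0.31 and -0.48. All 7 epithelial markers lay below 0 in both tables, with medians of -0.97 and -0.99, and they summed to 3342 FPKM in the SW480 Input and 1703 in the DLD-1 Input, and to 1396 in the SW480 RIP and 2896 in the DLD-1 RIP. The 15 S-phase genes had a median of -0.70 in the RIP table, with 13 of 15 below 0, and -0.74 in the acRIP table, with 14 of 15 below 0. Summed over the list, they stood at 416 FPKM in the SW480 Input and 280 in the DLD-1 Input, and at 332 in the SW480 RIP and 465 in the DLD-1 RIP. MCM5, a helicase subunit loaded at replication origins, was at 15.5 and 4.04 FPKM in the SW480 and DLD-1 Inputs. MCM7 had the highest ratio of the list, at 52.3 and 73.4 FPKM. The epithelial and S-phase lists thus moved with the members in each pair of libraries, and their part in the difference was not tested.

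A minority of members was higher in the DLD-1 Input, 10.3% in the RIP table and 8.62% in both tables, no more than the 13.8% and 10.3% of protein-coding genes. They are described for their position in the HIST1 cluster and were singled out after their values were seen. HIST1H2BB was listed at 0 in both SW480 Inputs and at 8.94 and 10.7 FPKM in the DLD-1 Inputs of the RIP and acRIP tables. HIST1H3C was at 0.166 and 0 FPKM in the SW480 Inputs and at 11.7 and 12.8 in the DLD-1 Inputs. In the RIP libraries HIST1H3C was at 114 FPKM under the SW480 label and at 0 under the DLD-1 label. HIST1H2BB was likewise higher under the SW480 label, at 6.91 against 0.521 FPKM.

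HIST1H2AE was the most abundant of these genes. It was at 10.1 and 1.78 FPKM in the SW480 Inputs of the RIP and acRIP tables and at 259 and 177 in the DLD-1 Inputs, with 104 in the SW480 RIP and 9.52 in the DLD-1 RIP. HIST1H2BG was at 2.23 and 1.72 FPKM in the SW480 Inputs, 20.2 and 6.93 in the DLD-1 Inputs, 17.3 in the SW480 RIP and 1.16 in the DLD-1 RIP. HIST1H3G was listed at 0 in both SW480 Inputs and at 8.30 and 7.48 FPKM in the DLD-1 Inputs. HIST1H2BI was at 0.359 FPKM in the SW480 Input and 6.81 in the DLD-1 Input of the RIP table, but at 0 in both acRIP-table Inputs. Each of the 6 genes was thus high in the DLD-1 Input and in the SW480 RIP, and low in the SW480 Input and in the DLD-1 RIP.

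In chromosome order the 6 genes formed 3 pairs of neighbours, each with a minus-strand gene followed by a plus-strand one: HIST1H2BB with HIST1H3C, HIST1H2BG with HIST1H2AE, and HIST1H3G with HIST1H2BI. The starts within a pair were 1671, 233 and 1518 bases apart. HIST1H2BH, which lies next to HIST1H3G on the other side, was higher in SW480, with 34.7 and 25.4 FPKM in the SW480 Inputs and 1.22 and 1.66 in the DLD-1 Inputs. HIST1H1D showed the same direction, as given above. Genes high in opposite lines thus lay side by side in the cluster.

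**Figure D4:**
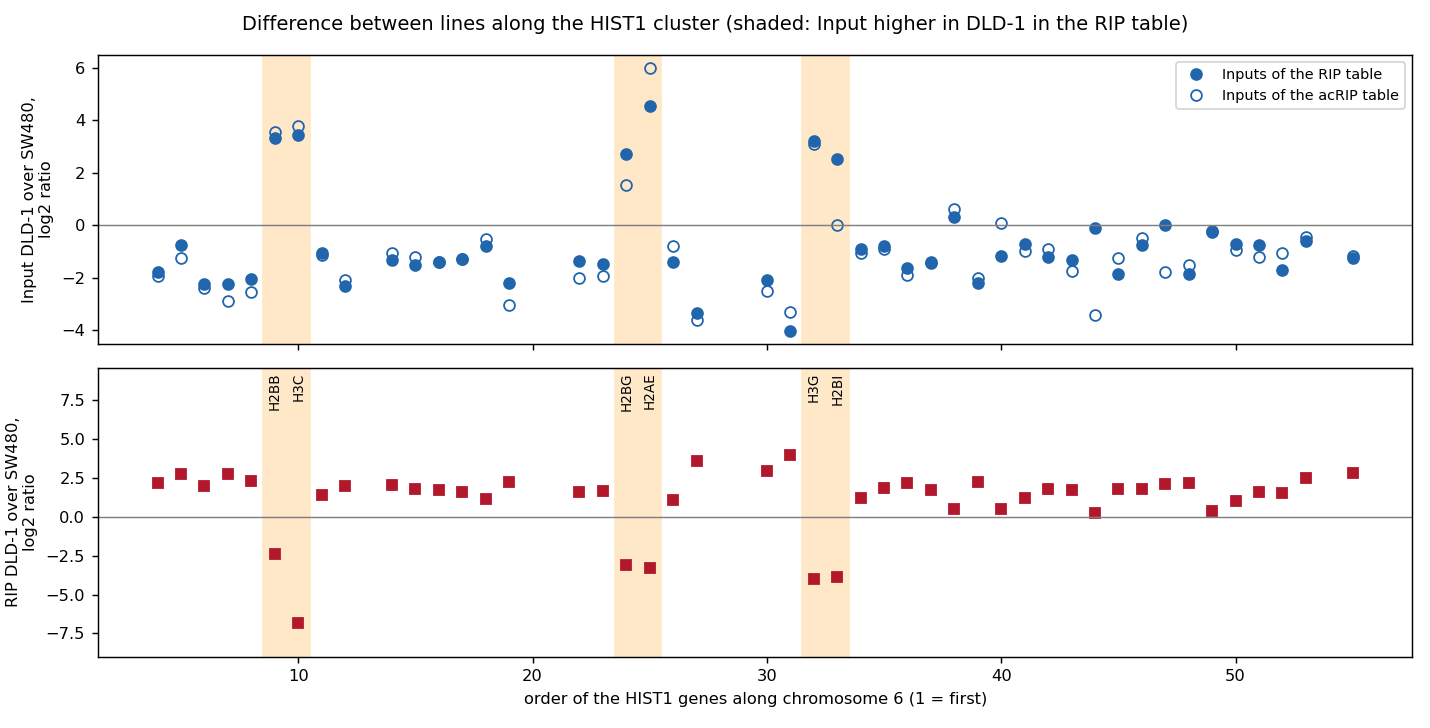
DLD-1 over SW480 log2 ratios of the HIST1 members past the limit in gene order along chromosome 6: Inputs of the RIP table (filled) and acRIP table (open) above, RIP libraries below. The 6 shaded genes are high in the DLD-1 Input of the RIP table and low in the DLD-1 RIP, and they fall in 3 pairs of neighbours.

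H2A and H2B genes of the cluster often lie back to back. Of the HIST1 members next to each other in gene order and with a known strand, 9 pairs started back to back within 194 to 248 bases. All 9 joined an H2A to an H2B gene. The count can miss pairs: HIST1H2BK and HIST1H2AH were not examined as a pair. HIST1H2AH had no strand in the reference used, and HIST1H4I stands between them in the order. In 6 pairs both genes passed the limit, and in 5 of these both had the same sign of the Input difference between lines, in either table. The exception in the RIP table was HIST1H2AK, at 0 in both Inputs there, with HIST1H2BN, and in the acRIP table it was HIST1H2BL with HIST1H2AI. Since 48 of the 58 members were below 0 in the RIP table and 49 in the acRIP table, most pairs of members share a sign, and nothing particular to back-to-back pairs is read from this count. In 3 pairs a gene did not pass, although its partner did in 2 of them: HIST1H2AD was listed at 0 in all 4 libraries beside HIST1H2BF at 28.7 to 93.3 FPKM, and HIST1H2AM was at most at 0.202 FPKM beside HIST1H2BO at 59.4 to 421. Partners of a pair could thus differ widely in listed level. HIST1H2AD lies inside the RefSeq span of HIST1H3D on the same strand, and HIST1H3D was also listed at 0 in all 4 libraries. How reads over such an overlap were counted is not given in the sources used here, so the 0 of HIST1H2AD is not read as a level. The reads of HIST1H2AM, and any of HIST1H2AD, are also uncertain because other H2A copies encode the same protein.

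The H2B promoters are shown because the genes on either side of the line difference carry the same element. The octamer ATTTGCAT, bound by POU2F1 and known from H2B promoters, was in 14 of 18 H2B windows on either strand and in 11 of 16 H2A windows. It was in 1 of 13 H3 windows, in 0 of 6 H1 and 0 of 13 H4 windows, and in 1.77% of all 35116 windows. The H2A and H2B windows of back-to-back pairs overlap, so an octamer can be counted in both. CCAAT was in all 6 H1, 16 H2A, 18 H2B and 13 H3 windows but in 3 of 13 H4 windows, against 34.6% of all windows. TATAAA was in 44 of 66 member windows, against 11.5%. In 13 H2B windows the octamer lay on the strand of the gene, 45 to 123 bases before the start. The 30 bases from its first base are printed 5′ to 3′, with the octamer and any TATAAA in capitals.
HIST1H2BB (chr6:26043804-26043833, minus strand): ATTTGCATaaaccccacccctcagtgaaac
HIST1H2BG (chr6:26216707-26216736, minus strand): ATTTGCATgaaaggccTATAAAaggagaga
HIST1H2BI (chr6:26272886-26272915, plus strand): ATTTGCATatacacgaggtaaataatgagg
HIST1H2BH (chr6:26251565-26251594, plus strand): ATTTGCATaaaagacctacaaaaacggcca
HIST1H2BK (chr6:27146875-27146904, minus strand): ATTTGCATgagaggtcctaTATAAAaacga
HIST2H2BE (chr1:149886699-149886728, minus strand): ATTTGCATaaggtggtTATAAAagaatcag
The first 3 genes were higher in the DLD-1 Input of the RIP table and the last 3 in the SW480 Input. HIST1H2BI and HIST1H2BH differed in opposite directions with the octamer 45 and 49 bases before their starts.

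The last question was which histone mRNAs held an ac4C peak. A peak is a stretch that the authors' caller found enriched in the acRIP over Input, in SW480 (9536 peaks), in DLD-1 (13964 peaks) or in both pooled (15622 peaks). In each line 2 of the 58 members past the limit had a peak, or 3.45% (95% Wilson interval 0.951 to 11.7%), where 47.7% of protein-coding genes did in SW480 and 52.6% in DLD-1. The pooled list had peaks on 3 members, or 5.17% (1.77 to 14.1%), against 59.5%. Of the 58 members, 37 had a mean of at least 50 FPKM. Other protein-coding genes with a mean of at least 50 FPKM had a peak in 82.4% of cases in SW480 and 84.2% in DLD-1, while among these 37 members 1 had a peak in SW480 and 2 in DLD-1. Of 25 other genes with a RefSeq span under 1000 bases, 9 (36%, 20.2 to 55.5%) had a peak in each line. Of the 11 replacement histones, 8 had a peak in SW480 and 9 in DLD-1. The intervals cover counting error only, and genes within a list are not independent.

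In DLD-1 the peaks were on HIST1H2AC and HIST1H2BK. The DLD-1 peak of HIST1H2AC had a fold enrichment of 92 (false discovery rate 3.16e-27) and 1 listed motif site, and its 2 blocks, chr6:26124740-26124749 and chr6:26138054-26138640, lay 50 and 13364 bases past the RefSeq end of the gene, labelled 3'-UTR in the list. HIST1H2AC has a known polyadenylated form. HIST1H2BK had a DLD-1 peak in its CDS at chr6:27146593-27146710, with 3 motif sites and a fold enrichment of 1.49 (false discovery rate 2.34e-06), which exceeded only 0.0645% of the peaks in that list. Neither gene had a peak in SW480.

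In SW480 the peaks were on HIST1H2BC and HIST3H2BB. The HIST1H2BC peak, chr6:26114933-26115082, was labelled 3'-UTR and lay 8844 bases from the 5' end of a RefSeq span of 10757 bases, with a fold enrichment of 9.37 and a false discovery rate of 0.396. The HIST3H2BB peak, chr1:228460291-228460470, lay 1733 bases past the RefSeq end, with a fold enrichment of 8.33 and a false discovery rate of 0.698. No member had a peak in both lines. Of the 4 genes only HIST1H2BK held its peak in the stretch that encodes the protein, and H1, H3 and H4 members had 0 peaks in any list. HIST1H4C and HIST1H4D, at mean log2 ratios of 2.51 and 2.11 over both labels but at 0.37 and -0.10 with SW480 labels, were therefore without a listed ac4C peak.

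**Figure D5:**
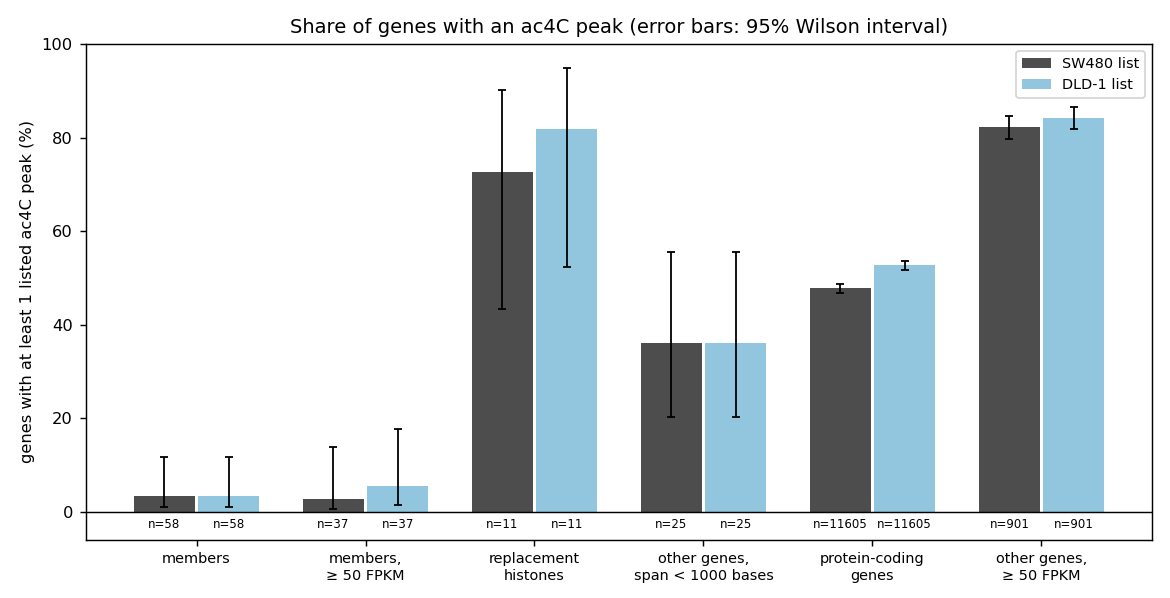
Share of genes with at least 1 listed ac4C peak in SW480 and DLD-1, with 95% Wilson intervals and the number of genes under each bar. Members are at 3.45% in each line, replacement histones at 72.7% and 81.8%, and protein-coding genes at 47.7% and 52.6%.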

How the data were processed

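Values came from the tables the authors deposited. The RIP table held FPKM of 2 RIP and 2 Input libraries, and a deposited expression table without a named unit, read as FPKM, held the acRIP Inputs. The deposited peak lists gave the authors' fold enrichment ratio, p-value, false discovery rate and count of motif sites. Per the labels, reads were trimmed with cutadapt 2.5 and aligned with HISAT2 2.1.0. The counter, annotation, strand setting, peak caller and any rRNA or poly(A) selection are not given in the sources used here.

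Ratios used a pseudocount of 1 FPKM and genes with a mean of at least 1 FPKM, and 2-fold was counted. Whole reads were solved from ratios of FPKM for 23506 of 23515 genes above 0 in 2 libraries (tolerance 0.002 reads) and gave relative depth and counting SE. These are the smallest whole reads, so the SE is an upper limit. The acRIP-table Inputs were scaled to the median of the RIP-table Inputs for ratios with RIP. Scripts ran in Python 3.11.15 with pandas and scipy and were tested on simulated data.

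The members and lists were chosen with earlier results of these data known. Named were, per class, the 4 members highest in mean FPKM and those with the extreme RIP ratio under each label, members with restricted expression, polyadenylated forms or near-identical copies, and the lists of related genes. RefSeq names matched 66 members by Ensembl ID and 5 by synonym. The stem-loop at the 3' end was not analysed here. Alternatives tried are given at the end.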

Additional observations from a re-analysis of the deposited data

Results flagged for a closer look

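The RIP over Input medians of the members had opposite signs under the 2 labels. The DLD-1 median minus the SW480 median, on the log2 scale, was 2.73 over all 58 members, 2.77 for H1, 2.41 for H2A, 2.87 for H2B and 2.93 for H3. With 1 library a group the difference between labels was not tested. The H4 medians were 0.06 with SW480 labels and 3.41 with DLD-1 labels, and the former turned below 0 under 4 other settings.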

How the results depend on the processing

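No paired analysis was possible because each group has 1 library and the labels carry no replicate numbers. The SW480 ratio turned with the Input: its median over all members became 0.55 over the other label's Input (H1 0.90, H2B 0.16, H3 0.72; 5 members lower), 0.42 over the other label's acRIP-table Input (H1 0.54, H2A 0.025, H2B 0.17, H3 0.46; 6 lower) and 0.82 as the mean of both labels (H1 1.07, H2A 0.089, H2B 0.43, H3 0.91; 21 higher, 2 lower). Its H4 median became -0.10 without the level filter, -0.19 when centred on protein-coding genes, -0.45 with the acRIP-table Input and -0.018 without members with polyadenylated forms. With Input at 1 FPKM or more in both labels 7 members were higher. The DLD-1 ratio kept its sign, with a median of 0.97 (28 higher, 2 lower) over the other label's Input, 0.81 (24 higher, 3 lower) over that of the acRIP table and 0.82 (21 higher, 2 lower) as the mean, and 2 lower with Input at 1 FPKM or more. For the mean of both labels, 4 members were lower with a pseudocount of 0.1 and 1 without near-identical copies. Its H2A median turned to -0.023 when centred and to -0.048 with Input at 1 FPKM or more or without polyadenylated forms. The mean of HIST1H2AK fell from 6.22, set by the pseudocount, to -0.077 with the acRIP-table Inputs. In the Input comparison, 1 member stayed higher in DLD-1 without the 5 high in both tables, as that choice fixes. Members with a peak fell to 0 in SW480 at a false discovery rate below 0.05 and at a p-value under the list's median, which left 1 in DLD-1 and 1 pooled. Peaks shared between lines on members numbered 0 at either overlap. The cause of these shifts was not tested. The other 81 values of counts and medians over all members kept their sign and stayed within 1.5 times (counts) or the exact 95% interval of the median. That interval is taken over genes that share the same libraries, so it describes spread between genes only. For the mean of both labels, 69 class and single-member values stayed within that interval (classes) or the 95% counting interval (single members). A further 33 moved past it and 4 turned sign, where single members counted as turned only if at least 2-fold. Depth limits low members most: the highest counting SE of a mean log2 ratio was 0.89, for HIST1H2BI.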

Other observations

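Among the 13 members below the level filter, 2 testis genes were read in the Inputs of different lines. HIST1H1T was at 1.55 and 1.93 FPKM in the DLD-1 Inputs of the RIP and acRIP tables and listed at 0 in both SW480 Inputs. It was at 0.705 FPKM in the SW480 RIP and 0.276 in the DLD-1 RIP. Its smallest whole reads were 3 in the SW480 RIP, 1 in the DLD-1 RIP and 3 in the DLD-1 Input. HIST3H3 was at 2.42 and 2.83 FPKM in the SW480 Inputs of the same tables, and listed at 0 in both DLD-1 Inputs and in both RIP libraries. It was above 0 in only 1 RIP-table library, so its whole reads could not be solved and its counting error is not known.

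Some members differed between the 2 Input tables of the same line. HIST1H4J was at 11.9 FPKM in the SW480 Input of the RIP table and 1.95 in that of the acRIP table, and HIST1H4K at 7.02 and 27.7, so the order of the 2 genes was reversed.

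H2AFJ, a replacement histone gene on no cluster list above, had the line pattern of the 6 HIST1 genes high in the DLD-1 Input, with 0.0440 FPKM in the SW480 Input, 9.54 in the DLD-1 Input, 5.79 in the SW480 RIP and 0 in the DLD-1 RIP. H1F0, another replacement histone gene, had the same directions, at 142, 468, 444 and 184 FPKM in the same order. Both were noticed after their values were seen, and the reversal between Input and RIP was common to genes at large, as given above.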
